A study of Rattus norvegicus with 16 samples.

Results

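The stomach of suckling rats given obestatin was compared with that of rats given saline, on 8 of the 16 arrays of the series: 4 of the OH group and 4 of the C group, chosen by their titles. The remaining 8 arrays held the middle intestine of the same 2 treatments. Pups of Wistar Han parents, labelled Wistar, received saline (C) or obestatin at 250 nmol/kg BW (OH) by oral gavage, in 2 daily doses between day 14 and day 21 after birth, while fed by their mothers, and the stomach was taken after the last dose. Several litters were assigned to each treatment, and the sources used here do not say from which litter an arrayed rat came, so p-values measure the spread between single rats that may be littermates. On every array the cRNA of 1 stomach was labelled with Cy5 and a common reference, a pool of RNA of all rats, with Cy3, and dyes were not swapped.

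Obestatin is a peptide cut from the same precursor as ghrelin, which is made mainly by endocrine cells of the gastric oxyntic mucosa and is acylated there by the enzyme encoded by Mboat4. The rat stomach joins a keratinized forestomach to a glandular part, where surface mucous cells secrete gastrokines and trefoil peptides, parietal cells acid, chief cells pepsinogen and antral G cells gastrin, over a wall of smooth muscle. Genes of the striated muscle sarcomere mark skeletal and heart muscle and are not typical of the gastric wall.

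Levels are given as the log2 ratio of Cy5 to Cy3, so that 1 unit is a doubling, and a change is OH minus C. Cy5 and Cy3 are also given apart, as log2 signal minus the median of the array. Probes were called separated when all 4 OH arrays lay above, or all 4 below, the 4 C arrays. For genes with several probes the brightest in Cy5 was used. Median raw signals of the 8 arrays ranged from 235 to 328 in Cy5, while those of the reference ranged from 189 to 191 on the C slide and from 341 to 376 on the OH slide. Each group was hybridized on a slide of its own and OH and C slides were scanned on different days, so the treatment cannot be told apart from slide or day of scanning. In limma, 0 of 21174 probes (0%) passed an adjusted p of 0.05 (smallest adjusted p 0.0544), while 2247 passed without adjustment, 1142 (5.39%) higher and 1105 (5.22%) lower in OH.

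Promoters of 4 genes whose ratio was lower on all OH arrays are shown to introduce the main groups described below, muscle genes and genes of surface and neck mucous cells. Mb encodes myoglobin, the oxygen store of striated muscle, and Myog encodes myogenin, a transcription factor of muscle differentiation that binds E-boxes. Gkn1 and Gkn2 encode gastrokines, proteins secreted by surface mucous cells. Each window is 300 bases around the annotated start, from RefSeq on GRCr8, written 5′ to 3′ on the gene's own strand, with E-boxes (CANNTG, which reads alike on both strands) in capitals.
Mb, chr7:110647693-110647992, minus strand: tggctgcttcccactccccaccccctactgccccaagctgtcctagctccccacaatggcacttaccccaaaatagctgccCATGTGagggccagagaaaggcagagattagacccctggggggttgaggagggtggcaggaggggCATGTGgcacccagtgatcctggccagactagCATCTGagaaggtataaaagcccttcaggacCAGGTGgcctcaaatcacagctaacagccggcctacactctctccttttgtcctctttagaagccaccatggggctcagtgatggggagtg
Myog, chr13:48297226-48297525, plus strand: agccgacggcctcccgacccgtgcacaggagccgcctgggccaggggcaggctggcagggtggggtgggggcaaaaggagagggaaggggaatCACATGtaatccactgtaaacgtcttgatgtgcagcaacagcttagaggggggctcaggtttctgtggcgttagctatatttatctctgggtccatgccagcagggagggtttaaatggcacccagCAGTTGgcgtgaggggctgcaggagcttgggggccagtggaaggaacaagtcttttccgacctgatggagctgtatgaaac
Gkn1, chr4:121352656-121352955, minus strand: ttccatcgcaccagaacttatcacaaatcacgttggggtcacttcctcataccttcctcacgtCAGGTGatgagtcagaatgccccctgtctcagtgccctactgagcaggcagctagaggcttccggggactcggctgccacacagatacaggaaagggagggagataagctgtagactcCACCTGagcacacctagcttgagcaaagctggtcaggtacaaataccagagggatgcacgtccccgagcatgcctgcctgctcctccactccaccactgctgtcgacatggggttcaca
Gkn2, chr4:121375344-121375643, plus strand: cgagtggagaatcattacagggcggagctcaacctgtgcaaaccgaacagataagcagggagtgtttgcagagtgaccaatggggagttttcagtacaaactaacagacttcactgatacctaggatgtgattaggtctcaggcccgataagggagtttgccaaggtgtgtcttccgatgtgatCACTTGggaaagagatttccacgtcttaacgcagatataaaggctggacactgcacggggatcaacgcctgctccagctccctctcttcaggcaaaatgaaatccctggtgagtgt
The Mb window holds 4 E-boxes, Myog 2, Gkn1 2 and Gkn2 1, and 72.1% of the 33469 windows of the table hold at least 1. The match is a description of these letters and not a sign of binding.

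Markers of muscle and forestomach differed widely between single arrays, and their part in the differences between OH and C was not tested. Of 19 striated muscle genes measured, 17 were lower in OH, 13 of them with an unadjusted p under 0.05, with a median log2 change of -2.29 against -0.0014 over all 13599 genes. Over all genes, 10.8% had an unadjusted p under 0.05 in both directions together, the share to set beside this count and those of the lists below. Of the 19, only Mb was separated, in ratio and in Cy5, against 3.74% of all genes separated lower in ratio. The mean of the list was 3.55, -0.71, 3.14 and 3.77 on C arrays 1 to 4 and 0.94, -0.23, -0.35 and 0.73 on OH arrays 1 to 4. C array 2 was thus lower than every OH array, and all 19 genes had their lowest C value on it. Ampd1, the AMP deaminase of skeletal muscle and the largest fall of the list, stood at 6.12, 0.82, 5.59 and 6.51 in C and at 1.17, 0.73, 0.96 and 1.06 in OH. In bulk tissue, fewer cells of a type and less RNA per cell cannot be told apart.

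Smooth muscle went the other way. All 14 smooth muscle genes measured had a positive change, 8 with an unadjusted p under 0.05, with a median of 1.32, but none was separated. The mean of the list was -1.92, -2.32, -1.24 and -1.75 in C and 1.06, -1.16, -2.32 and 0.27 in OH. OH arrays 1, 2 and 4 were above every C array, OH array 3 was level with the lowest, and all 14 genes were highest on OH array 1. Cnn1, the contractile regulator calponin, changed by 1.84 and Actg2, the enteric smooth muscle actin, by 1.69 (adjusted p 0.344 and 0.375 in limma). All 12 fibroblast and matrix genes had positive changes too (median 0.54), 1 with an unadjusted p under 0.05, and their list mean was highest on OH arrays 1 and 4 (0.43 and -0.01).

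Forestomach genes were mostly lower in OH, with 20 of 21 negative changes, 7 of these with an unadjusted p under 0.05, and a median of -0.60. The list mean was 1.06, 0.26, 1.79 and 1.43 in C and 0.14, 1.19, 0.19 and 0.43 in OH, so that C array 2 and OH array 2 each lay apart from their group. Of the 21 genes, 19 were highest on C array 3, and none was separated. Krt4 and Krt13, keratins of the squamous epithelium, had the largest falls in ratio, by 1.12 and by 1.02 on the log2 scale, neither of which passed adjustment (adjusted p 0.414 and 0.399 in limma).

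Gast, the antral hormone gastrin, was singled out after its values were seen. Its ratio was 4.51, -2.01, 4.26 and 4.73 in C and 3.82, 3.34, 3.92 and -2.02 in OH. It was therefore low on 1 array of each group, and the change of -0.60 between groups (SE 1.40, adjusted p 0.909 in limma) was smaller than that gap. Tff2, a trefoil peptide of neck and antral gland cells that was also chosen after its values were seen, was lowest on the same arrays, at 0.91 on C array 2 and -0.31 on OH array 4, against 3.17 to 3.73 and 1.29 to 2.76 on the others. Chief cell genes divided the arrays differently: Chia, an acidic chitinase of chief cells, stood at 3.61, 6.19, 3.56 and 2.85 in C and at 2.79, 5.60, 5.00 and 5.28 in OH. None of the 7 chief cell genes measured had an unadjusted p under 0.05 and their median change was 0.54.

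**Figure D1:**
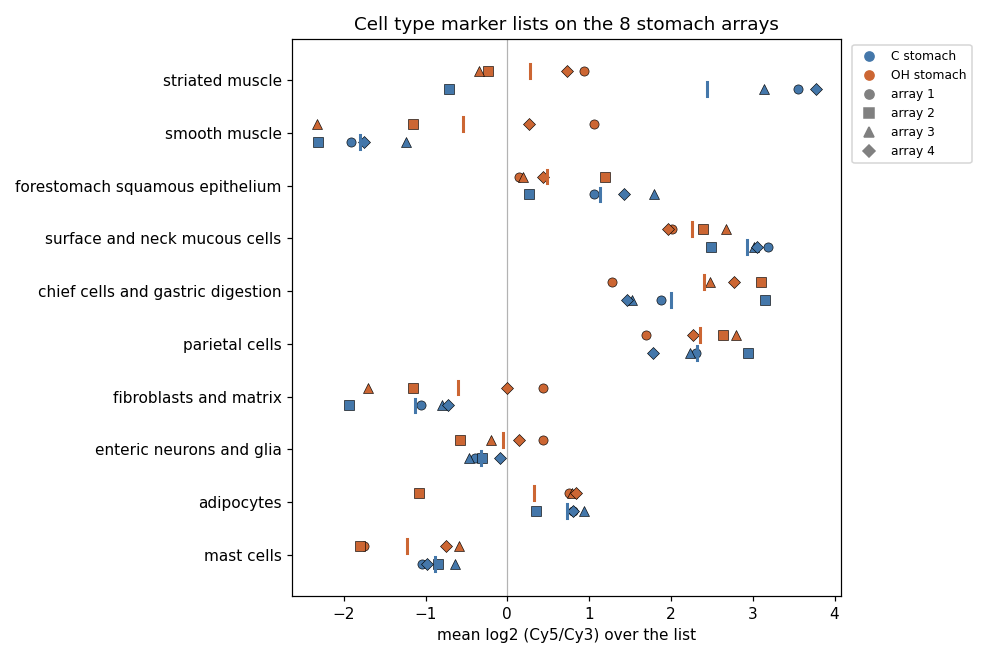
Mean log2 ratio of Cy5 to Cy3 over the members of 10 marker lists (x axis) on each of the 8 stomach arrays, blue for C and orange for OH, with a marker shape for each array number and a vertical bar for the group mean. C array 2 lies at -0.71 for striated muscle, against 3.14 to 3.77 on the other C arrays, and OH arrays 1 and 4 hold the highest smooth muscle values.

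Likeness between arrays followed the same lines. Across probes, which are not independent replicates, Pearson's r was 0.939 to 0.943 among C arrays 1, 3 and 4, while C array 2 had 0.802 to 0.855 with these and 0.939 and 0.917 with OH arrays 3 and 2. OH array 1 had 0.707 to 0.879 with the other OH arrays. Leaving out C array 2 raised the number of probes passing in limma from 0 to 311, 41 higher and 270 lower in OH. This array was singled out in these same data, so the 311 are no test of the treatment. With the score of striated muscle, forestomach or smooth muscle as a covariate on the 8 arrays, 0 probes passed in limma (smallest adjusted p 0.298, 0.595 and 0.245), the smooth muscle covariate having been chosen after seeing the data.

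All 4 OH arrays lay above the C arrays at 863 probes (4.08%) and below them at 743 (3.51%), of 21163 with a value on every stomach array. Of these 1606 probes, 931 had a larger change in Cy5 than in Cy3, and at 620 Cy3 was separated the opposite way. In the reference, the same pool on every array, 8690 probes (41.0%) passed an adjusted p of 0.05 in limma between the OH and C slides, against 33 (0.156%) in Cy5, 3 higher and 30 lower in OH. Separation in ratio was therefore read together with Cy5. With normexp and loess, 657 probes were higher and 1206 lower, and with each array's median ratio set to 0 the split was 684 and 1039.

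Ratio and Cy5 were separated in the same direction at 157 probes (0.757%) higher and 391 (1.89%) lower in OH, of 20727 detected in stomach. The direction rests on scaling Cy5 between arrays: with Aquantile normalization the split was 232 higher and 266 lower, and with Cy5 left unscaled 572 and 37. With 1 probe per gene there were 109 genes higher and 245 lower, with median changes of 0.30 and -0.39. A fall of more than 1 on the log2 scale was seen in 23 and a rise of more than 1 in 3. For every gene so chosen, the exact permutation test of 4 against 4 arrays gives 0.0286, its smallest two-sided p, because the choice itself required it, so it is not repeated.

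**Figure D2:**
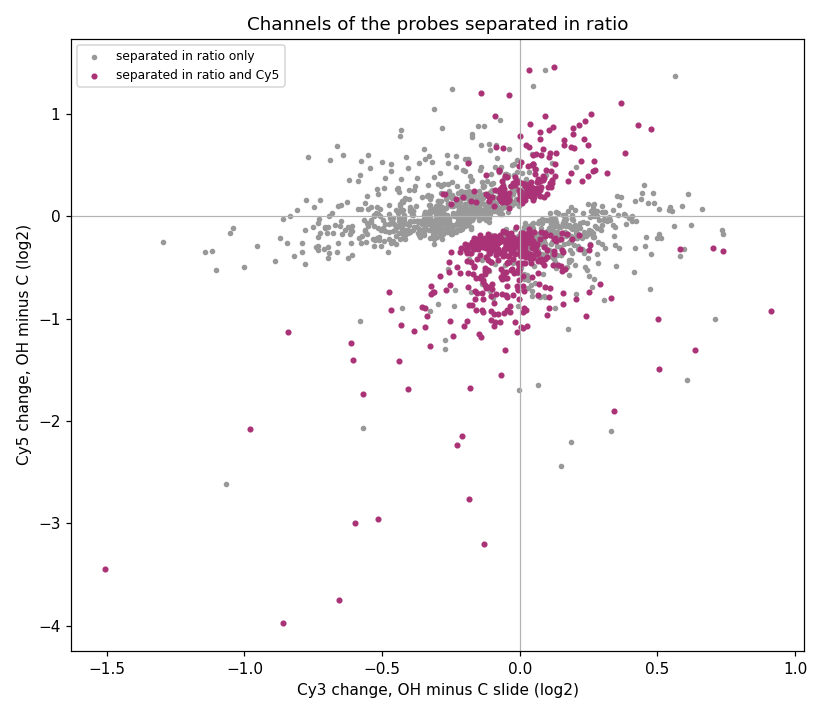
Change of Cy3 (x axis) and of Cy5 (y axis), OH minus C on the log2 scale, for the 1606 probes separated in ratio; purple points were separated in Cy5 as well. Points far left or right near a Cy5 change of 0 have their change of ratio in the reference channel, and the lowest purple points, down to -3.97 for Mb, are muscle genes.

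Among genes separated in ratio and Cy5, the largest falls were mostly muscle genes. Of the 19 striated muscle genes of the list, however, only Mb was separated. Mb (chromosome 7, 115087578 to 115087637 on rn4) stood at 4.23, 0.51, 3.97 and 4.66 in C and at 0.08, 0.10, 0.35 and 0.41 in OH. In ratio the groups did not overlap, but C array 2 lay just above the highest OH array and far below the other C arrays. The mean fell from 3.34 ± 1.91 to 0.24 ± 0.17 (SD, n = 4), a log2 change of -3.11 (SE 0.63, adjusted p 0.185 in limma). In Cy5 Mb changed by -3.97 and in Cy3 by -0.86, the reference being separated as well. Without scaling, the log2 Cy5 signal of Mb on C array 2 was 8.07, within the 7.90 to 8.37 of the OH arrays.

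Lmod3, leiomodin 3, which organizes thin filaments of skeletal muscle, stood at 3.44, 0.98, 2.55 and 3.64 in C and at 0.18, -1.68, -0.56 and 0.34 in OH. On none of the OH arrays was its Cy5 well above background. With the background subtraction of the deposited signals the difference was at least 10.2-fold in Cy5, open to dye bias. With normexp and loess the change of its ratio was -1.14, so the bound depends on the background correction. The bound sets the C mean against, per OH array, the higher of the probe's own signal and the lowest signal of a probe well above background, after Aquantile normalization. Myog stood at 3.36, 1.28, 2.72 and 5.56 in C and at 0.39, -1.29, 0.58 and 0.99 in OH, well above background on 2 OH arrays. Mylk2, the myosin light chain kinase of skeletal muscle, stood at 1.89, 0.10, 1.34 and 2.54 in C and at -1.19, -1.30, -0.65 and -1.29 in OH, a change of -2.57 (SE 0.40, adjusted p 0.0774 in limma).

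Unc45b, a myosin chaperone of striated muscle, changed by -2.44, Actc1, cardiac actin, by -2.39, Smtnl1, a smoothelin-like protein of muscle, by -1.93 and Tmod4, a tropomodulin of skeletal muscle, by -1.93. Without scaling, the Cy5 signals of Lmod3, Myog and Unc45b overlapped between the groups, and those of Mylk2, Actc1, Smtnl1 and Tmod4 did not. Of the 12 genes with the largest falls, 10 had their lowest C value on array 2, against 43.7% of the 245 separated lower from which these were drawn and 29.7% of all genes. With the striated muscle score as a covariate on the 8 arrays, the change was -1.33 for Mb, -1.72 for Mylk2 and -1.15 for Actc1. Mb is itself a member of that score, so part of its smaller change was built in. Without C array 2, Mb, Mylk2 and Actc1 passed, with changes of -4.05, -3.03 and -3.08 (adjusted p 6.08e-08, 0.000127 and 1.71e-07 in limma). That array was singled out through its low values of muscle genes, so these p-values are no test of such genes. With normexp and loess the change of Myog was -1.23.

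Outside muscle, the smallest p belonged to Dmrtc1b (chromosome X, 90847975 to 90848034 on rn4), a relative of the doublesex and mab-3 factors. Its ratio was 4.07, 3.96, 3.36 and 3.84 in C and 1.49, 2.12, 1.82 and 2.05 in OH, a change of -1.94 (SE 0.26, adjusted p 0.0544 in limma), with the probe well above background on 3 of 4 OH arrays. In ratio C array 2 was among the other C arrays, but in Cy5 it stood at -3.13 against -2.34 to -2.18 on these, near the -3.28 of OH array 2. Its Cy5 changed by -1.31 and its Cy3 by 0.64, both from signals below the median of the array, with Cy3 at -7.00 to -5.24. With normexp and loess Dmrtc1b changed by -0.44. It passed with array medians set to 0 (adjusted p 0.026 in limma) and with the authors' table (0.0488). The olfactory receptor genes Or10j27 and Or5h17b changed by -1.48 and -0.91 (adjusted p 0.0607 in limma for each), and by -0.63 and -0.29 with normexp and loess. Their reference signals were weak, at Cy3 levels of -6.55 to -5.53 for Or10j27 and -4.35 to -3.81 for Or5h17b. Ddit4l, an inhibitor of mTOR signalling, and Mettl11b, a methyltransferase, complete the 12 at -1.49 and -1.27. Ddit4l stood at 3.21, 1.86, 2.39 and 3.61 in C and at 1.06, 1.52, 1.52 and 1.02 in OH. Its lowest C value was on array 2, as for the striated muscle list, and its change was -0.95 with that list's score as a covariate. Without scaling, the Cy5 signals of Dmrtc1b, Or10j27 and Ddit4l overlapped between the groups, and those of Or5h17b and Mettl11b did not. The Mettl11b probe was not well above background on any OH array. Its difference was at least 2.35-fold in Cy5 with the deposited background subtraction, but its change was -0.17 with normexp and loess.

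The rises were smaller. St6galnac5, a sialyltransferase of gangliosides, stood at -2.03, 0.00, -0.78 and -0.64 in C, where its probe was never well above background, and at 0.29, 0.81, 0.39 and 0.46 in OH. With the deposited background subtraction this was at least 2.29-fold in Cy5, but the change was 0.29 with normexp and loess. Cd8a, the co-receptor of cytotoxic T cells, stood at -2.96, -3.49, -2.58 and -2.37 in C and at -0.55, -1.97, -2.27 and -1.23 in OH, a change of 1.34 (SE 0.35, adjusted p 0.256 in limma). Cd3d, a chain of the T cell receptor complex chosen after its values were seen, went down instead, from -0.59, -1.10, -0.67 and -0.97 to -1.45, -1.14, -1.28 and -1.47. The 12 leukocyte genes of the list had a median change of 0.07 with none at an unadjusted p under 0.05.

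Rbpms, an RNA-binding protein of smooth muscle, stood at -0.78, -0.59, -0.59 and -0.93 in C and at 0.85, -0.27, -0.43 and 0.56 in OH. OH arrays 1 and 4, those with the highest smooth muscle values, were its highest, as they were for 8 of the 12 genes with the largest rises, against 43.1% of the 109 separated higher from which these were drawn and 22.4% of all genes. With the smooth muscle score as a covariate its change was 0.43 in place of 0.90, that of Cd8a 0.67 and that of Golm2, a Golgi membrane protein, 0.40 in place of 0.74. Hmcn1, the matrix protein hemicentin, changed by 0.79 and was highest on OH arrays 4 and 3, and the smooth muscle score left it at 0.90. With normexp and loess Cd8a changed by 0.14, Hmcn1 by 0.07 and St6galnac5 by 0.29. Ctxn3, Olr59, Pwwp2a, Plcl1, Ppap2a, Pcdhb19 and Dtwd2 had changes from 0.71 to 1.07, and with normexp and loess those of Pwwp2a, Dtwd2, Ppap2a and Pcdhb19 were 0.16, 0.21, 0.23 and 0.29.

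**Figure D3:**
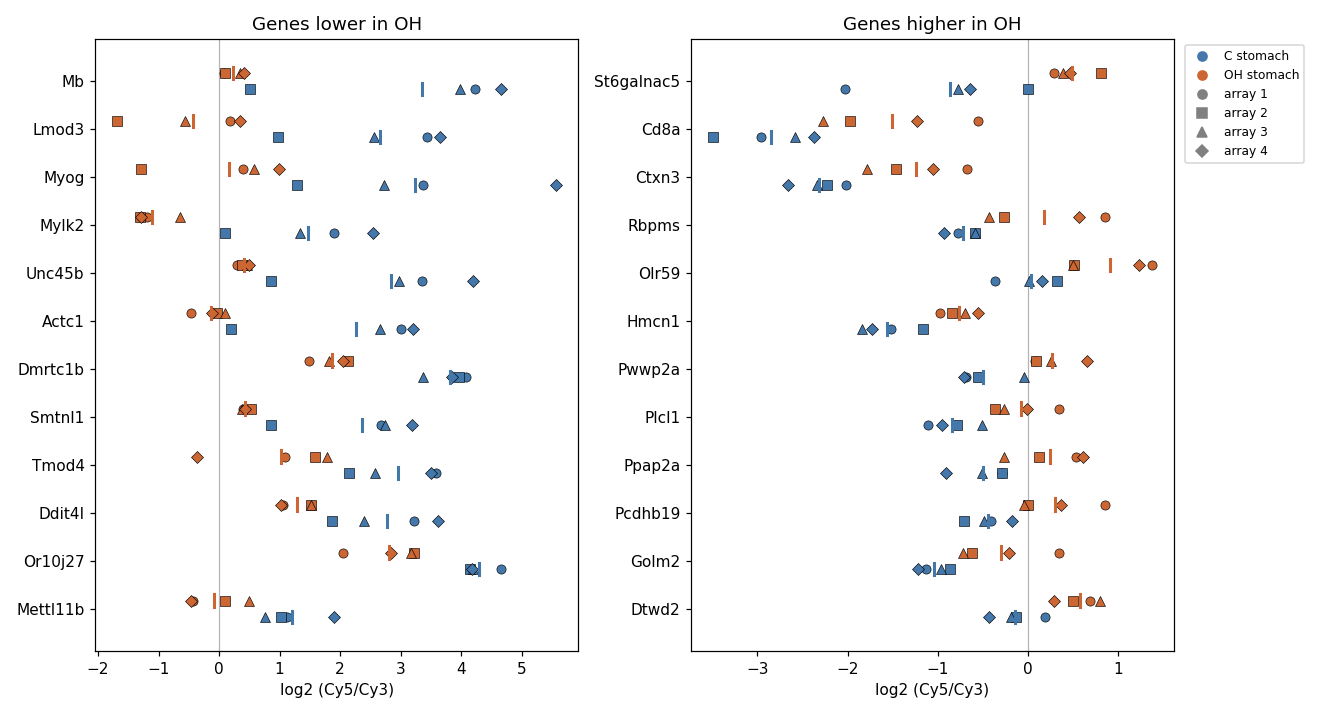
Log2 ratio of Cy5 to Cy3 (x axis) on each stomach array for the 12 genes with the largest falls (left) and rises (right) among those separated in ratio and Cy5, blue for C and orange for OH, with bars at group means. In the left panel C array 2 (square) lies nearest to the OH arrays for most muscle genes, such as Mb at 0.51.

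Genes of surface and neck mucous cells, Tff2 among them with the largest fall (-1.35), were lower in OH as a list. All 11 genes measured had a negative change, 7 with an unadjusted p under 0.05, against 10.8% of all genes, with a median of -0.56. In ratio 5 were separated lower, against 3.74% of all genes. Of these, 3 were separated in Cy5 as well, against 1.84% of the genes detected in stomach. The list mean was 3.18, 2.49, 3.01 and 3.05 in C and 2.01, 2.39, 2.68 and 1.96 in OH, so that the groups overlapped, OH array 3 lying above C array 2, as it did in Cy5 (6.30 against 6.14). Gkn1 (chromosome 4, 121496267 to 121496326 on rn4) stood at 4.62, 3.98, 4.47 and 4.36 in C and at 2.53, 3.71, 3.48 and 3.41 in OH, a change of -1.08 (SE 0.22, adjusted p 0.193 in limma). Gkn2 changed by -0.89 and Tff1, the trefoil peptide of surface mucus, by -1.01. In each, C array 2 was the lowest C array and OH array 1 the lowest OH array.

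Over the list the median change was -0.56 in Cy5 and 0.08 in Cy3, but for Gkn1, Gkn2 and Tff1 the larger change was in the reference. The Cy5 level of Gkn1 was 9.74 to 9.82 above the median of the array in C and 9.18 to 9.59 in OH, a change of -0.34, while its Cy3 level was 5.26 to 5.93 in C and 5.81 to 6.86 in OH, a change of 0.74. For Gkn2 the Cy5 and Cy3 changes were -0.32 and 0.58, and for Tff1 -0.31 and 0.70. In Cy5 so scaled the groups did not overlap for these genes, whereas in Cy3 they did. Without scaling, the log2 Cy5 signal of Gkn1 was 17.94 to 18.00 in C and 17.90 to 18.12 in OH. The unscaled Cy5 signals of Gkn2 and Tff1 overlapped between the groups as well. Muc1, a membrane mucin chosen after its values were seen, changed by -0.64 with -0.57 in Cy5 and 0.08 in Cy3, and Muc5ac, the main gel-forming mucin of the gastric surface, by -0.09.

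**Figure D4:**
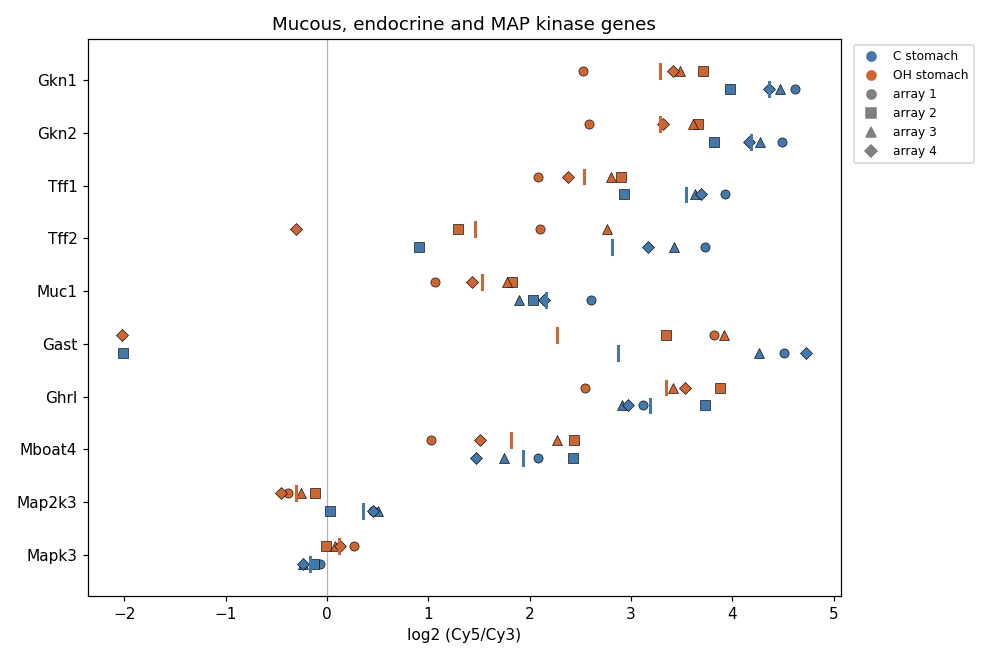
Log2 ratio of Cy5 to Cy3 (x axis) of mucous, endocrine and MAP kinase genes on each stomach array, blue for C and orange for OH, with bars at group means. Gast lies near -2 on C array 2 and OH array 4 and above 3 elsewhere, while Gkn1, Gkn2 and Tff1 have all OH arrays below all C arrays.

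Other epithelial genes separated in ratio and Cy5 were chosen after their values were seen. Elf3, an epithelial transcription factor, stood at 1.19, 0.48, 0.60 and 0.88 in C and at -0.49, 0.04, 0.33 and -0.04 in OH, a change of -0.83 (SE 0.20, adjusted p 0.229 in limma). Erbb2, a receptor tyrosine kinase of epithelia, changed by -0.63 and Grb7, an adaptor that binds it, by -0.56. Prss8 and St14, membrane serine proteases that act in one cascade, changed by -0.53 and -0.35. For Elf3, Erbb2, Prss8 and St14 the Cy3 change was between -0.01 and 0.06, and the difference lay in scaled Cy5. Without scaling, the Cy5 signals of Elf3, Erbb2, Grb7, Prss8 and St14 overlapped between the groups. Those of Erbb2 were 11.06 to 11.61 in C and 11.09 to 11.30 in OH. Dio1, which activates thyroid hormone, changed by -1.21 and Rbm3, a cold-inducible RNA-binding protein, by 0.48, and for both the reference was separated as well. The Cy5 of Dio1 was weak, at -3.83 to -3.05 in C and -4.68 to -4.12 in OH. With normexp and loess Dio1 changed by -0.68 and Rbm3 by 0.46.

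The acid-secreting cells showed little difference. Of 12 parietal genes measured, 7 were higher and 5 lower, and 1 had an unadjusted p under 0.05. Atp4a and Atp4b, the subunits of the proton pump, changed by -0.06 and -0.03 (adjusted p 0.939 and 0.981 in limma). The exception was Slc26a9, an anion transporter chosen after its values were seen, which stood at 2.56, 2.08, 2.46 and 2.24 in C and at 1.04, 1.73, 1.87 and 1.19 in OH, a change of -0.88, with -0.61 in Cy5 and 0.27 in Cy3. In scaled Cy5 its groups overlapped, C array 2 at 1.14 lying below OH array 3 at 1.26, while the reference was separated.

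The ghrelin and obestatin axis was measured by 9 genes, 3 higher and 6 lower, with 1 at an unadjusted p under 0.05. Ghrl, which encodes the precursor of both peptides, stood at 3.12, 3.73, 2.91 and 2.97 in C and at 2.55, 3.88, 3.41 and 3.53 in OH, a change of 0.16 (SE 0.39, adjusted p 0.914 in limma, exact permutation p 0.629, two-sided). The groups overlapped, and both extremes were OH arrays. Mboat4 changed by -0.12 (SE 0.33) and Gpr39, a receptor once proposed for obestatin, by -0.04 (SE 0.16). Cpe, the carboxypeptidase that trims prohormones, changed by 1.06 (SE 0.50, adjusted p 0.472 in limma), was highest on OH arrays 1 and 4, and changed by -0.06 with the smooth muscle score as a covariate. Acot7, an acyl-CoA thioesterase counted in this list, was the only member separated, at 0.32, 0.12, 0.41 and 0.48 in C and -0.26, -0.07, -0.01 and -0.14 in OH. It did not pass adjustment (adjusted p 0.293 in limma). Without scaling, its Cy5 signals overlapped between the groups, at 11.95 to 12.37 in C and 12.06 to 12.32 in OH.

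Among 26 genes of the MAP kinase cascades, 14 were higher and 12 lower, with 4 in each direction at an unadjusted p under 0.05, against 10.8% of all genes in both directions together. Map2k3, the kinase that activates p38, stood at 0.45, 0.03, 0.50 and 0.45 in C and at -0.39, -0.12, -0.26 and -0.45 in OH, a change of -0.66 (SE 0.14, adjusted p 0.199 in limma), with C array 2 again nearest to OH. Map2k6, which also activates p38, changed by -0.33, and by channel this was -0.01 in Cy5 and 0.33 in Cy3. Mapk3, the kinase ERK1, changed by 0.28, with -0.04 in Cy5 and -0.32 in Cy3, and Mapk8, a JNK kinase, by 0.41, with 0.46 in Cy5 and 0.06 in Cy3. All 4 were separated in ratio, as were 6.88% of all genes, and none of them in Cy5.

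Function lists moved little. Cholesterol synthesis and uptake was the most uniform, with 22 of 23 genes lower, 4 at an unadjusted p under 0.05 and a median of -0.27, but its list mean of 0.56 on OH array 3 was above all C arrays, of which the highest was 0.43. Of 72 ribosomal protein genes, 11 were separated lower in ratio and 6 higher, against 3.74% and 3.14% of all genes. Over the 72 the median change was -0.21 in Cy5 and -0.17 in Cy3, so the list was lower in both channels. The 11 lower ones were separated in scaled Cy5 too, with changes of ratio from -0.25 (Rpl29) to -0.09 (Rpl10). Without scaling, the Cy5 signals of all 11 overlapped between the groups, such as Rpl29 at 16.04 to 16.17 in C and 16.01 to 16.25 in OH. The 62 respiratory chain genes had a median of -0.02 and none had an unadjusted p under 0.05. Isg15, an interferon-induced protein, changed by -1.92, from 2.87, -1.17, 3.00 and 1.79 to -0.81, -0.02, -0.67 and 0.30, so that C array 2 lay below all OH arrays.

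The response was set against that of the middle intestine by the difference of both changes. In limma, 0 of 21174 probes (0%) passed, with a smallest adjusted p of 0.394, while 1238 had an unadjusted p under 0.05. Mb changed by -0.17 and Actc1 by -0.02 in the intestine, and Gkn1 by 0.67, in the direction opposite to the stomach (adjusted p of the difference 0.394 in limma). Map2k3 changed by -0.60 in the intestine. A difference between the tissues was not shown for any of these genes.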

How the data were processed

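RNA of the stomach of 8 rats was measured on 2-colour SurePrint G3 rat arrays, and 8 arrays of the middle intestine entered the same fit. The intensity values deposited by the authors are background-subtracted and Lowess dye-normalized within each array by Agilent Feature Extraction, version 10.10.1.1 in the file headers and 10.7.3.1 in the submitters' processing notes. A second table of theirs, deposited as log10 ratios, served as an alternative. Control and outlier spots were left out, spots of a probe were averaged, and the log2 ratio of the deposited processed Cy5 and Cy3 signals was taken with no scaling between arrays. Probes whose spots were well above background in Cy5 (a share of at least 0.5) on all 4 arrays of any group were kept, 21174 of 30367. Groups were fitted with limma 3.58.1 under R 4.3.3 (Python 3.11.15 for the rest) over all 16 arrays, with Benjamini-Hochberg adjustment. The number of arrays limits the precision. Probe names are those of the array design, on rn4, updated by accession where RefSeq allowed.

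Named genes were the 12 largest rises and falls among genes separated in ratio and Cy5, the 5 with the smallest p, separated members of the lists, the ghrelin and obestatin axis, and list members with the brightest Cy5 or the largest change; others are said to have been chosen after their values were seen. Members and lists were chosen with earlier results of these data known. Alternatives were background correction, normalization, scaling, filters, the authors' table, array weights, covariates, a replicate block, the methods' ANOVA with Tukey's test, and leaving out each array. The fit was tested on simulated data.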

Additional observations from a re-analysis of the deposited data

Results flagged for a closer look

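The gap of the highest or lowest array to its nearest neighbour, as a share of the range of its group, was large in 12 of the 174 groups checked, where chance alone flags about 1 in 20, or 8.7. C array 2 stood apart for the striated muscle list (gap 0.86), Mb (0.834), Map2k3 (0.894), Gast (0.93) and Rpl10 (0.833). It was low in all but Rpl10. OH array 4 stood apart for Gast (0.902), at -2.02. OH array 2 stood apart for the adipocyte list (0.958), at -1.08 against 0.76 to 0.84 on the other OH arrays, and C array 3 for the leukocyte list (0.843), at -1.48 against -1.89 to -1.83. The remaining gaps were 0.831 for Mylk2 and 0.889 for Rpl10 on OH array 3, 0.904 for Or10j27 on C array 1, and 0.905 for Acads, an enzyme of fatty acid oxidation, on OH array 1.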

How the results depend on the processing

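The number of probes passing in limma was 0 with normexp and loess, Aquantile, outlier spots kept, the 8 stomach arrays alone or a replicate block (smallest adjusted p 0.0721 with the replicate block). Deviations of same-numbered OH and C arrays correlated at 0.03, 0.25, -0.36 and 0.30, so the numbers were not taken to pair rats. The number in limma was 3 with array medians set to 0, 2 with the authors' table, 4 with 1 probe per gene, 639 with no filter and 1138 with array weights. It was 2247 without adjustment, and 0 to 311 when 1 array was left out, the highest without C array 2. ANOVA with Tukey's test, outside limma, gave 709, a count unlike the others. There only the test over all 4 groups, both tissues included, was adjusted over probes, and Tukey's p was not. Separated probes numbered 3427 in ratio with no filter and 936 with 1 probe per gene. With 1 array left out they numbered 1914 to 3975 in ratio and 706 to 2078 in ratio and Cy5, the highest without C array 2 (without OH array 3, 3666 and 1865). Cy5 alone gave 11 probes after quantile normalization, and the difference between tissues 1238 without adjustment.

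Of 70 genes followed through the alternatives, 8 changed sign in at least 1; other genes named in the text were not followed. Mboat4 was 0.0436 with normexp, 0.10 with array weights and 0.41 with the smooth muscle score, and Gpr39 0.0633, 0.0043 and 0.16, with 0.0285 for the forestomach score. Glp1r was -0.014 with array medians set to 0, -0.18 with the striated muscle score and -0.16 with the forestomach score. Gast was 2.06 and 1.20 with these scores, and Ghrl -0.28 with the first. Lypla1 was 0.0508 with array weights and 0.10 with the smooth muscle score, which gave -0.063 for Cpe and 0.0919 for Insr. Leaving out 1 array gave ranges of -0.0174 to 0.42 for Ghrl, -0.33 to 0.14 for Mboat4, -0.12 to 0.0827 for Gpr39, -0.0824 to 0.10 for Glp1r, -0.10 to 0.11 for Lypla1 and -2.23 to 0.82 for Gast. The cause was not tested.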

Other observations

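Genes of vessels and nerves, other constituents of the gastric wall, had mostly positive changes. Of 9 endothelial genes measured, 8 were higher in OH, 2 of them with an unadjusted p under 0.05, with a median log2 change of 0.30. The list mean was highest on OH arrays 1 and 4, at -0.23 and -0.43 against -1.37 to -0.99 in C. OH array 2, at -1.12, lay within the range of C, and OH array 3, at -1.47, below it. Of 15 genes of enteric neurons and glia, 14 were higher, none with an unadjusted p under 0.05, with a median of 0.24. OH array 2, at -0.57, was the lowest of the 8 arrays for that list. OH arrays 1 and 4 were also those with the highest smooth muscle list means, and the part of smooth muscle in these values was not tested.

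Mast cell genes divided the OH arrays. The list mean over 7 genes was -1.76 and -1.81 on OH arrays 1 and 2 and -0.59 and -0.75 on OH arrays 3 and 4, against -1.05 to -0.64 in C, and 6 of the 7 genes had a negative change, 1 with an unadjusted p under 0.05. Of 32 genes of DNA replication and mitosis, 22 were lower, with a median of -0.08, and 4 (12.5%) had an unadjusted p under 0.05, a share near the 10.8% of all genes, and OH array 3 had the highest list mean and OH array 4 the lowest of the 8 arrays.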
